A study of Homo sapiens with 2 samples.

Results

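The genes described here are 10 members of the NOTCH signalling pathway, namely the receptors NOTCH1, NOTCH2, NOTCH3 and NOTCH4, the Jagged ligands JAG1 and JAG2, the receptor-modifying enzyme LFNG, and the target genes HES1, HEY1 and NRARP. They were chosen by symbol from the 18944 genes of a table of RNA sequencing counts, and all 10 were found. The table holds 2 libraries of H1993, an established human lung cancer cell line with an amplified MET receptor gene. The resistant library came from cells grown out of H1993 under the MET kinase inhibitor PHA665752, whose dose was raised stepwise between 1 nM and 1 µM. These cells were then kept in 1 µM and taken off the drug for 1 week before use, and their sample label gives PHA665752 as the treatment. The parental library came from the unselected line, with DMSO as its labelled treatment. The labels do not say whether the resistant line is a single clone, or whether drug was present when RNA was collected.

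NOTCH receptors are single-pass membrane proteins that are activated by ligands on neighbouring cells. Ligand binding exposes the receptor to cutting by ADAM proteases and then by gamma-secretase, and the freed intracellular domain enters the nucleus, where it joins the DNA-binding protein RBPJ and a Mastermind coactivator to switch on target genes. In the airway epithelium NOTCH activity is known to favour secretory over ciliated cell fates and to restrain neuroendocrine differentiation. The comparison asks how these genes differ between the drug-resistant derivative and the line it came from.

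The sequences just upstream of 3 members with lower counts in the resistant library are shown because RBPJ binds DNA through a core written here as TGGGAA. HES1, its textbook target, holds these letters at 2 places, and whether RBPJ uses either place was not tested. All are from RefSeq on GRCh38.p14, are the 250 bases that end just before the annotated start, run 5′ to 3′ on the gene's strand, and have TGGGAA on either strand in capitals.
HES1, chr3:194135898-194136147, plus strand: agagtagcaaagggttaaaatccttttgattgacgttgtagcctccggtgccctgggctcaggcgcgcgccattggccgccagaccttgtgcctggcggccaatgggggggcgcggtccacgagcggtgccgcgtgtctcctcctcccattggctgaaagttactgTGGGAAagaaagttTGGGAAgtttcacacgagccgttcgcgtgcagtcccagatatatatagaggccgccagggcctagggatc
NRARP, chr9:137302272-137302521, minus strand: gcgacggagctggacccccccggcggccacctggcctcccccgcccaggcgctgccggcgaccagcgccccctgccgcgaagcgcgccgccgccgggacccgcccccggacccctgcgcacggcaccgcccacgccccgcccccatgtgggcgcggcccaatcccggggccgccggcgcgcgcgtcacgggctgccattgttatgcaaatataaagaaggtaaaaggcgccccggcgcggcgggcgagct
NOTCH3, chr19:15200996-15201245, minus strand: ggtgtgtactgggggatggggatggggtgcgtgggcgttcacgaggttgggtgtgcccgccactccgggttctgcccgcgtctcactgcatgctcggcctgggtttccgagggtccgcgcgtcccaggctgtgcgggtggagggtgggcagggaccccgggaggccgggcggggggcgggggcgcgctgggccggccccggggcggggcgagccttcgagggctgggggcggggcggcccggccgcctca

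HES1 has 2 copies of TGGGAA on its own strand, at 84 to 79 and 70 to 65 bases before the start. The windows searched ran from 250 bases before to 50 after each start, on both strands, with no other motif searched. Windows of 9 members were searched, and HEY1 was left out of the search, so nothing is said of its sequence. Of these 9, HES1 and LFNG held the letters, LFNG once in each of its 2 annotated starts. Of all 35116 RefSeq windows of this length, 24.0% held TGGGAA at least once and 3.80% held 2 or more. A match is a description of these letters and not of binding, and their absence from the other windows says nothing of RBPJ there.

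The summed counts were 17086748 in the resistant and 16723181 in the parental library. CPM, the count per 1000000 counts, uses library sizes corrected by the trimmed mean of M-values. Log2 ratios set the resistant library over the parental one after 0.5 was added to every count. Genes that reached 1 CPM in either library were tested. A gene was called higher or lower when the ratio was at least 2-fold and its exact 95% counting interval left out 0 on the log2 scale. The upper limit for a gene with 0 counts, taken as 3 counts, was 0.177 CPM in resistant and 0.178 CPM in parental cells. Each group has 1 library, so there is no replicate check, no p-value is given, and every interval covers counting error only. Of 6 epithelial marker genes, 6 were tested and only EPCAM passed the rule, at 164 CPM in the resistant and 389 CPM in the parental library. Markers of the lung lineage were near absent in both libraries apart from NKX2-1, at 5.95 CPM in resistant and 4.16 CPM in parental cells.

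In resistant cells 6 of the 10 members were called lower, each by more than 2-fold, and 0 were called higher. These 6 were NOTCH3, JAG1, LFNG, HES1, HEY1 and NRARP. Of 12245 tested genes, 8.29% were called lower and 12.1% called higher. With a 4-fold rule 3 members, NOTCH3, LFNG and HEY1, were lower and 0 higher, beside 2.93% and 6.32% of tested genes. With a difference of 1 or more in the deposited log2 values the same 6 members were lower and 0 higher, beside 4.83% and 7.56% of tested genes. With the whole counting interval beyond 2-fold the same 6 members were again lower and 0 higher, beside 5.35% and 8.96% of tested genes. NOTCH1, NOTCH2 and JAG2 passed neither way, and NOTCH4 was under 1 CPM in both libraries and was not tested. LFNG was tested only through the parental library, which fixed its direction. The median log2 ratio was -1.34 over the 9 tested members and 0.00 over all tested genes, and both the members and this comparison were picked with earlier results in view.

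**Figure D1:**
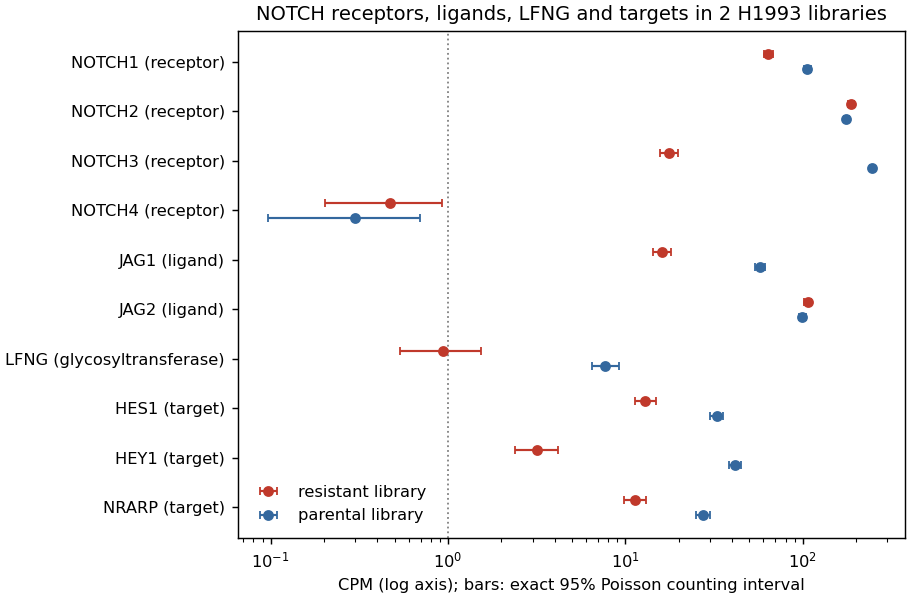
Level of each of the 10 members in CPM on a log axis, in the resistant library (red) and the parental library (blue), with exact 95% Poisson counting intervals and a dotted line at 1 CPM. The red points of NOTCH3, JAG1, LFNG, HES1, HEY1 and NRARP lie clearly left of the blue ones, NOTCH2 and JAG2 nearly coincide, and NOTCH4 lies under 1 CPM in both libraries.

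Among the receptors, NOTCH3 had 300 counts in the resistant and 4135 in the parental library, which is 17.7 CPM (counting interval 15.7 to 19.8) against 246 CPM (238 to 253). NOTCH3, known in adult tissue mostly from vascular smooth muscle and also from lung tumours, was thus 13.9-fold lower in resistant cells (12.4 to 15.7). Only 1.02% of tested genes had a lower log2 ratio than its -3.79. In bulk RNA, fewer cells that express a gene and less RNA in each cell cannot be told apart, here or for any gene below.

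NOTCH1, the receptor with the broadest known roles in epithelial fate, had 1084 counts in the resistant and 1788 in the parental library, or 63.9 and 106 CPM. It was 1.66-fold lower in resistant cells (1.54 to 1.80), short of the 2-fold rule. NOTCH2 had 3176 counts in the resistant and 2965 in the parental library, or 187 and 176 CPM. Its log2 ratio of 0.09 (0.01 to 0.16) made it the receptor closest to equal between the libraries.

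Part of NOTCH2 is duplicated in near-identical genes, of which the table lists 1 as NOTCH2NL, with 603 counts in the resistant and 705 in the parental library. How reads were divided between both genes is not stated, so each is uncertain alone. Their sum was 3779 counts in resistant and 3670 in parental cells, a log2 ratio of 0.03 (-0.04 to 0.10).

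NOTCH4, a receptor known mainly from endothelium, had 8 counts in the resistant and 5 in the parental library. Both values are under 1 CPM, and the log2 ratio of 0.62 has a counting interval from -1.13 to 2.62, so a difference was not detectable at this depth. Its annotated exons overlap those of GPSM3 on the same strand, which makes even these counts uncertain. Of 6 endothelial marker genes, 5 had at most 1 count in either library, among them PECAM1, KDR and VWF. The sixth, CDH5, had 495 counts in the resistant and 5 in the parental library, and its part in any NOTCH result was not tested.

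Levels of different genes were compared per kilobase of transcript, with GENCODE 29 lengths. In resistant cells the order of the receptors was NOTCH2 at 16.4 CPM per kb, NOTCH1 at 6.86, NOTCH3 at 2.04 and NOTCH4 at 0.0699. In parental cells it was NOTCH3 at 28.3 CPM per kb, NOTCH2 at 15.5, NOTCH1 at 11.4 and NOTCH4 at 0.0440. The most abundant receptor transcript therefore differed between the lines: NOTCH2 took 64.7% of the summed receptor level in the resistant library, and NOTCH3 took 51.3% in the parental one.

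Set against NOTCH2 within the same library, the NOTCH3 level per length was 0.124 times that of NOTCH2 in resistant cells (counting interval 0.110 to 0.140) and 1.83 times in parental cells (1.75 to 1.92). These ratios need no scaling between libraries, and their intervals do not overlap. Over the 4 receptors together, counts summed to 4568 in the resistant and 8893 in the parental library, a log2 ratio of -0.97 (-1.02 to -0.92). Without NOTCH3 the sums were 4268 in resistant and 4758 in parental cells, a log2 ratio of -0.17 (-0.23 to -0.11). Most of the difference in summed receptor counts was thus NOTCH3.

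**Figure D2:**
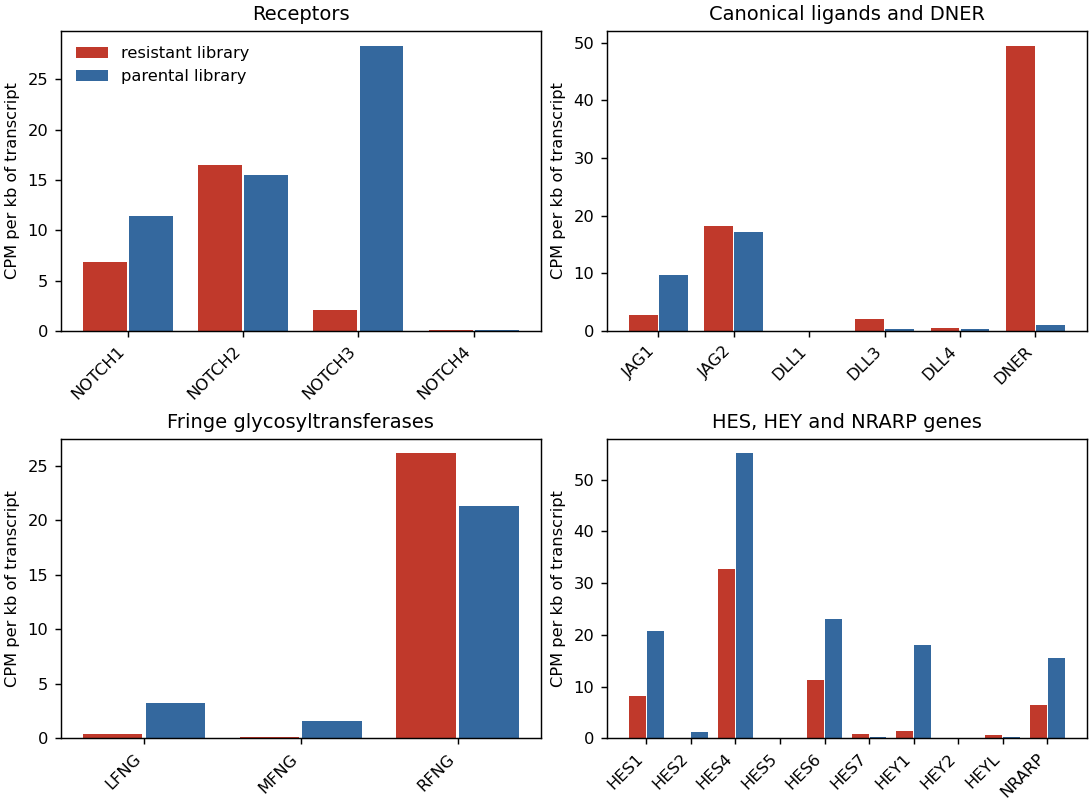
Level per kilobase of transcript (CPM per kb, linear axis from 0) of the receptors, the canonical ligands with DNER, the fringe enzymes, and the HES, HEY and NRARP genes, with the resistant library in red and the parental library in blue. NOTCH3 is the tallest parental receptor bar and a low resistant one, and DNER is the tallest resistant ligand bar at 49.5 CPM per kb against 1.09 in parental cells.

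The 2 Jagged ligands differed from each other. JAG1, the ligand whose loss in humans causes Alagille syndrome, had 273 counts in the resistant and 965 in the parental library, or 16.1 and 57.3 CPM. It was 3.56-fold lower in resistant cells (3.11 to 4.09), a log2 ratio of -1.83. JAG2, its close relative, had 1809 counts in the resistant and 1676 in the parental library, or 107 and 99.6 CPM, and a log2 ratio of 0.10 (0.00 to 0.19).

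Per length, JAG2 was the more abundant Jagged ligand in both lines. JAG1 stood at 0.148 times the level of JAG2 in resistant cells (0.130 to 0.168) and at 0.566 times in parental cells (0.522 to 0.613). Exons of JAG1 overlap an annotated antisense transcript and those of JAG2 a processed transcript on the same strand. Neither transcript is listed in the table, and without a stated strand setting their reads cannot be separated from JAG1 and JAG2.

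The other ligands were scarce or low in parental cells. Of 2 other canonical ligands tested, 1 was called higher and 0 lower, beside 12.1% and 8.29% of all tested genes. Of 3 further ligands tested, 2 were called higher and 0 lower. The filter fixed the direction of DLL3 and DLK2, as given below. CNTN1 had 25 counts in resistant and 37 in parental cells (log2 ratio -0.57) and passed neither way. DLL3, a divergent ligand known to inhibit NOTCH within its own cell, had 84 counts in the resistant and 15 in the parental library (log2 ratio 2.43, 1.67 to 3.37). DLL4, best known from sprouting vessels, had 27 counts in resistant and 20 in parental cells and passed neither way. DLL1 had 3 counts in resistant and 0 in parental cells.

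DNER, a transmembrane protein reported to act as a NOTCH ligand in the mouse nervous system, had 2738 counts in the resistant and 60 in the parental library. It was 45.3-fold higher in resistant cells (35.0 to 59.5). Per length its level was 2.71 times that of JAG2 in resistant cells (2.55 to 2.88) and 0.0641 times in parental cells (0.0487 to 0.0829), so in the resistant library it outranked every canonical ligand. DLK2, another EGF-repeat protein of this kind, had 22 counts in resistant and 5 in parental cells (log2 ratio 2.02, 0.69 to 3.88), and missed the rule by the deposited log2 values (0.54). DLL3 and DLK2 were tested only through the resistant library, which fixed their direction.

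LFNG (lunatic fringe) adds N-acetylglucosamine to fucose on the receptors' EGF repeats and so tunes which ligands they answer. It had 16 counts in the resistant and 130 in the parental library, or 0.943 and 7.72 CPM, and was 8.19-fold lower in resistant cells (4.86 to 14.8). MFNG, the manic fringe enzyme, had 6 counts in resistant and 57 in parental cells (log2 ratio -3.16, -4.76 to -2.05). RFNG, the radical fringe enzyme, had 812 counts in resistant and 655 in parental cells, at a log2 ratio of 0.30 (0.15 to 0.45). RFNG made up 97.9% of the summed fringe level per length in the resistant and 81.4% in the parental library.

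Beside LFNG, 8 other enzymes that build sugars on NOTCH receptors were listed, and 4 of them were called lower and 0 higher, beside 8.29% and 12.1% of all tested genes. By a difference of 1 in the deposited log2 values, or with the whole counting interval beyond 2-fold, MFNG alone of these 4 kept its call. POGLUT1, which attaches the first glucose, was at 12.0 CPM in the resistant and 24.9 CPM in the parental library (log2 ratio -1.06). EOGT, which attaches N-acetylglucosamine directly, was at 5.24 and 12.8 CPM in resistant and parental cells (-1.29). MFNG and the xylosyltransferase gene GXYLT2, with 6 resistant and 18 parental counts, were the remaining 2, and both were tested only through the parental library. POFUT1, which attaches the fucose that fringes extend and was the most abundant of the list, was at 201 CPM in resistant and 148 CPM in parental cells (0.44).

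The target genes HES1, HEY1 and NRARP were all called lower in the resistant library. HEY1, a transcriptional repressor of the Hairy family, had 54 counts in the resistant and 701 in the parental library, or 3.18 and 41.6 CPM. It was 13.1-fold lower in resistant cells (9.92 to 17.6), with a log2 ratio of -3.70 close to that of NOTCH3. Only 1.09% of tested genes had a lower log2 ratio.

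HES1, the repressor whose upstream sequence is given above, had 220 counts in the resistant and 552 in the parental library, or 13.0 and 32.8 CPM. It was 2.53-fold lower in resistant cells (2.16 to 2.97). NRARP, an ankyrin-repeat protein that is induced by NOTCH and dampens it in turn, had 192 counts in the resistant and 461 in the parental library, or 11.3 and 27.4 CPM. It was 2.42-fold lower (2.04 to 2.88), and its interval overlaps that of HES1. The interval of HEY1 lies beyond both.

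The 3 targets thus divided into HEY1, with a ratio near that of NOTCH3, and HES1 with NRARP, whose ratios were smaller in size. HEY1 stood at 0.169 times the HES1 level per length in resistant cells (0.123 to 0.228) and at 0.873 times in parental cells (0.780 to 0.978). NRARP stood at 0.778 times HES1 in resistant cells (0.638 to 0.949) and at 0.745 times in parental cells (0.657 to 0.844), and these intervals overlap. The lengths of NRARP and HES1 are uncertain, but the same lengths enter both libraries. Counts of the 3 targets summed to 466 in the resistant and 1714 in the parental library, which is 3.71-fold lower.

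Other genes of the HES and HEY family did not all share the direction. HES2 had 13 counts in the resistant and 95 in the parental library (log2 ratio -2.83) and was tested only through the parental one. HES6, which in mice counteracts HES1, was at 16.6 CPM in resistant and 33.5 CPM in parental cells (-1.02, -1.23 to -0.81), just past the rule, and missed it by the deposited log2 values (-0.96). HES4, the most abundant of the family, was at 34.0 and 57.3 CPM in resistant and parental cells (-0.75) and passed neither way.

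HES7 was higher, with 26 counts in the resistant and 9 in the parental library (1.47, 0.38 to 2.80), and was tested only through the resistant library. HEYL had 36 resistant and 18 parental counts, with a log2 ratio of 0.97 that missed the size rule. HEY2 and HES5 had at most 6 counts in either library and were not tested. Of the 10 HES, HEY and NRARP genes, 8 were tested, 5 were called lower and 1 higher. Without HES1, HEY1 and NRARP, 5 were tested, with 2 called lower (40.0%) and 1 higher (20.0%), beside 8.29% and 12.1% of all tested genes. By the deposited log2 values HES2 (-0.98) and HES7 (0.57) missed the rule too.

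**Figure D3:**
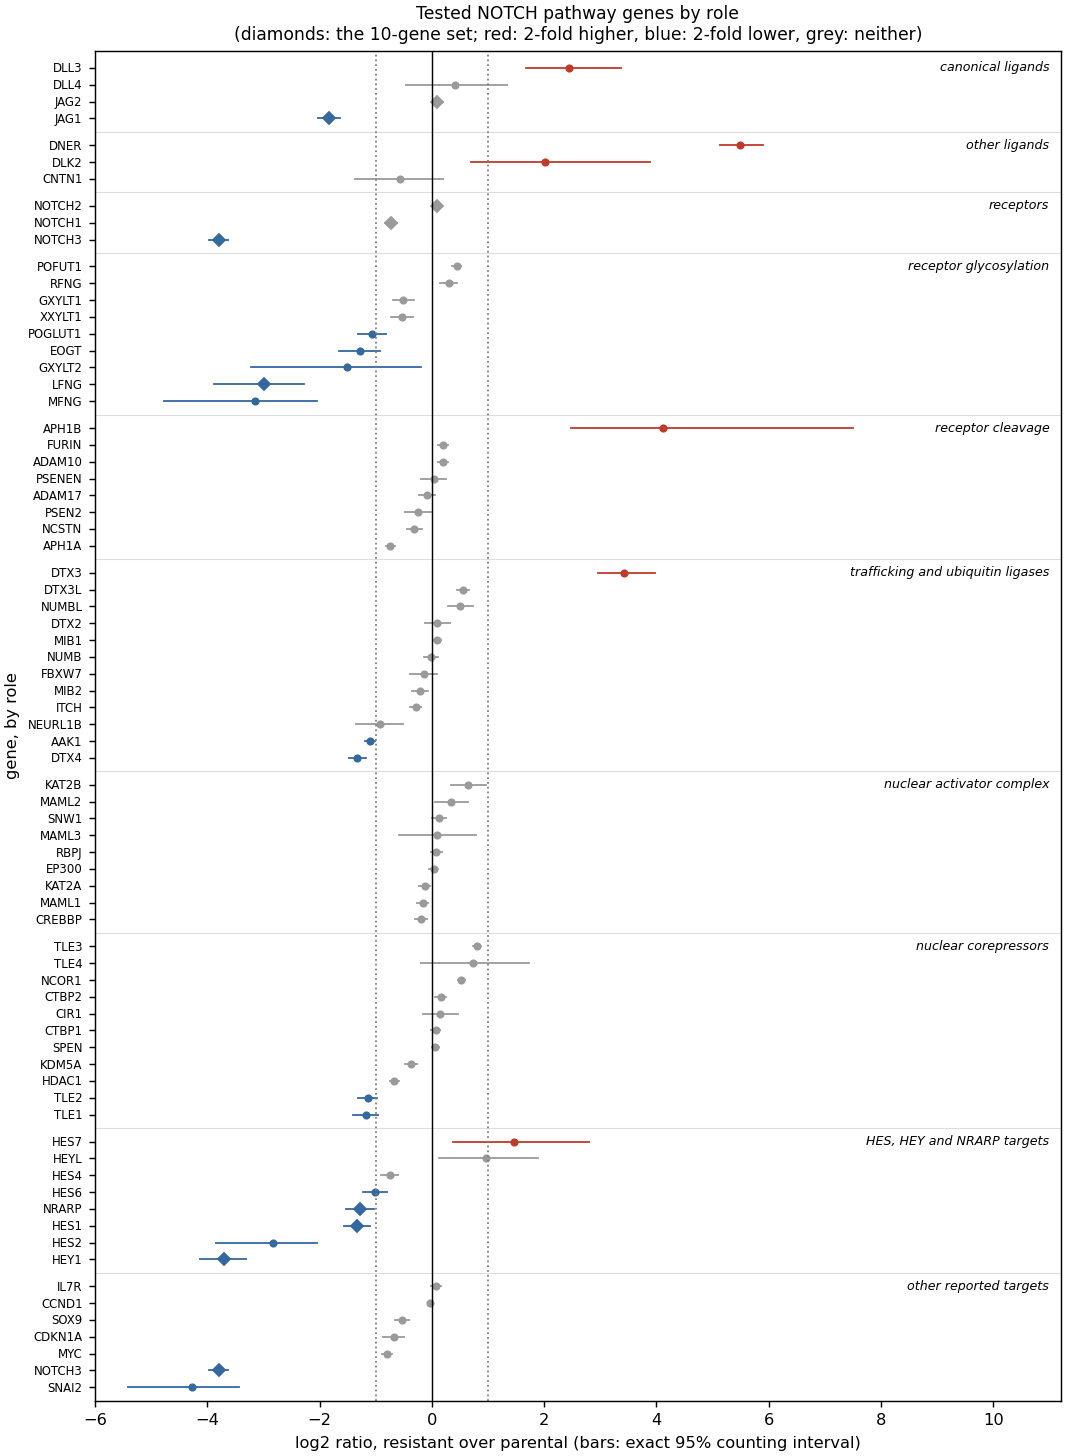
Log2 ratio of resistant over parental for tested genes of the 10 pathway lists, grouped by role, with exact 95% counting intervals and dotted lines at 2-fold. Diamonds mark the 10-gene set, and the 9 genes of the nuclear activator complex all lie between the dotted lines. Groups that reach far to the left are the receptors, glycosylation, HES, HEY and NRARP, and other reported targets.

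Between ligand and target stand the genes for receptor cleavage, trafficking, and the nuclear activator and corepressor complexes. The median size of the log2 ratio, sign ignored, was 0.20 for cleavage, 0.13 for the activator complex, 0.40 for trafficking and 0.58 for corepressors, beside 0.41 over all tested genes. Of 9 genes for receptor cleavage, 8 passed neither way, 1 was called higher and 0 lower, beside 12.1% and 8.29% of all tested genes. ADAM10, which makes the first ligand-induced cut, was at 138 CPM in the resistant and 121 CPM in the parental library. APH1A, a scaffold subunit and the most abundant of these genes, was at 111 CPM in resistant and 186 CPM in parental cells (-0.74). Its paralog APH1B was the 1 gene called higher, with 43 resistant and 2 parental counts (4.11, 2.47 to 7.51), and was tested only through the resistant library. By the deposited log2 values APH1B missed the rule (0.65).

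None of the 9 genes of the nuclear activator complex passed the rule, beside 8.29% called lower and 12.1% called higher among all tested genes. Their median log2 ratio was 0.08. RBPJ, the DNA-binding partner of all 4 receptors, was at 116 CPM in the resistant and 110 CPM in the parental library (0.08, -0.01 to 0.17). The coactivator MAML1 was at 96.8 and 109 CPM in resistant and parental cells (-0.16). EP300, highest of the list in CPM without length correction, was at 168 and 164 CPM in resistant and parental cells. Per kb of transcript EP300 was at 17.5 CPM in resistant and 17.1 in parental cells, below KAT2A at 28.8 and 31.5.

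Corepressors had 2 of 12 genes called lower, the Groucho homologues TLE1 (-1.18) and TLE2 (-1.14), and 0 called higher, beside 8.29% lower and 12.1% higher among all tested genes. TLE1 missed the rule by the deposited log2 values (-0.99), and the counting intervals of both reach inside 2-fold. TLE1 was at 14.2 CPM in resistant and 32.2 CPM in parental cells, and TLE2 at 25.2 CPM in resistant and 55.7 CPM in parental cells. Their relative TLE3 stood on the other side, at 239 CPM in resistant and 138 CPM in parental cells (0.80), short of the rule.

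Among 14 genes for trafficking and ubiquitin ligases, 12 were tested, 1 was called higher (8.33%) and 2 lower (16.7%), beside 12.1% and 8.29% of all tested genes. DTX3, a Deltex-family ubiquitin ligase, had 405 counts in the resistant and 37 in the parental library and was 10.9-fold higher in resistant cells (7.74 to 15.6). DTX4, of the same family, was at 31.2 CPM in resistant and 78.3 CPM in parental cells (-1.33, -1.48 to -1.18). AAK1, a kinase of clathrin adaptors, was at 83.0 CPM in resistant and 179 CPM in parental cells (-1.11), and missed the rule by the deposited log2 values (-0.94). MIB1, the ubiquitin ligase that ligand endocytosis requires, was at 159 CPM in resistant and 150 CPM in parental cells. It was the highest of the list in mean CPM without length correction, but per kb of transcript MIB1 lay below NUMB in both libraries.

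Of 9 further genes reported as NOTCH targets in various tissues, 7 were tested, and NOTCH3 itself and SNAI2, a repressor of epithelial genes, were called lower. Without NOTCH3, 6 were tested, with 1 called lower (16.7%) and 0 higher, beside 8.29% and 12.1% of all tested genes. SNAI2 had 10 counts in the resistant and 201 in the parental library (-4.27, -5.42 to -3.43) and was tested only through the parental one. CCND1, the cyclin D1 gene and the most abundant, was at 484 CPM in resistant and 495 CPM in parental cells (-0.03), and MYC, at 99.3 CPM in resistant and 173 CPM in parental cells (-0.80), passed neither way. These genes answer to many other pathways.

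Over the 76 pathway genes outside the 10-gene set, 66 were tested, 11 were called lower and 6 higher. As shares of those tested these are 16.7% lower and 9.09% higher, beside 8.29% and 12.1% of all tested genes. The median log2 ratio was -0.02. Of these 66 genes, 5 were tested only through the resistant and 4 only through the parental library. Among the called genes these were DLL3, DLK2, APH1B and HES7 (resistant only) and MFNG, GXYLT2, HES2 and SNAI2 (parental only). For these the filter fixed the direction of the call. By the deposited log2 values 4 of the 66 genes were lower (MFNG, DTX4, TLE2 and SNAI2) and 3 higher (DLL3, DNER and DTX3), beside 4.83% and 7.56% of all tested genes.

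**Figure D4:**
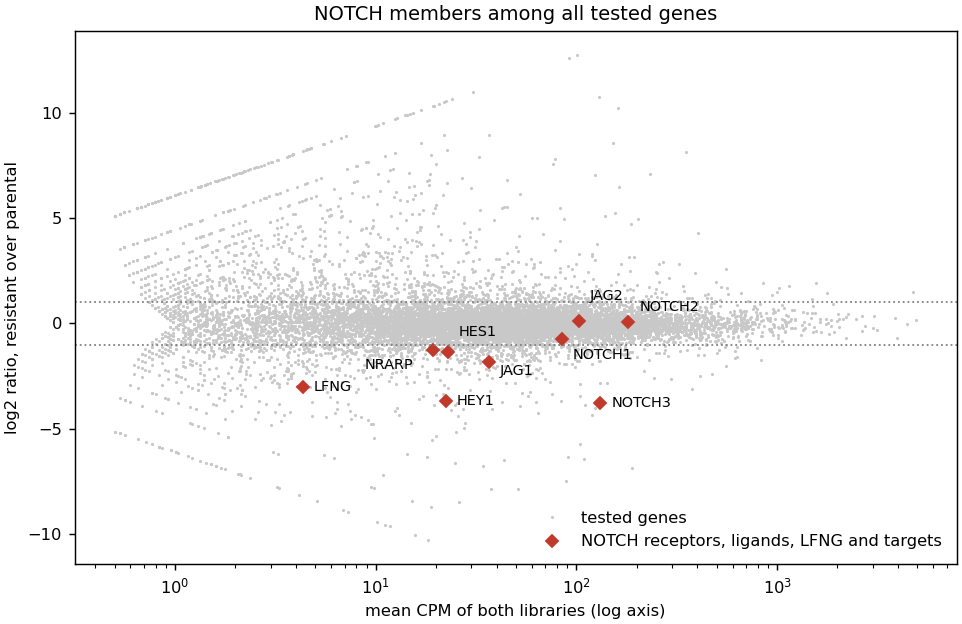
Log2 ratio of resistant over parental against the mean CPM of both libraries (log axis), for all 12245 tested genes in grey and the 9 tested members as red diamonds, with dotted lines at 2-fold. NOTCH3 at -3.79 and HEY1 at -3.70 lie below nearly all genes of like abundance, while NOTCH2 and JAG2 lie in the middle of the cloud.

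Genes most like NOTCH3 were sought among 3097 tested genes within 2-fold of it in mean CPM, by the difference in log2 ratio over the 2 libraries. Of these 3097, 116 were called lower, beside 1015 of all 12245 tested genes (8.29%), and 8 had a ratio at or below that of NOTCH3. The nearest were MALL, at 14.1 CPM in the resistant and 206 CPM in the parental library, CEACAM6, at 12.0 CPM in resistant and 156 CPM in parental cells, and HMGA2, at 14.3 CPM in resistant and 232 CPM in parental cells. Their log2 ratios were, in this order, -3.87, -3.70 and -4.02. With 2 libraries this likeness is a single ratio and nothing more.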

How the data were processed

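RNA sequencing was done on 1 resistant and 1 parental library of H1993 cells. The authors deposited raw counts per gene symbol and normalized log2 values, per the file headers. The columns headed PR_S2 were taken as the resistant library, which its label names HPR_S2, on this partial match. STAR for alignment and FastQC for read quality are named per the submitters' processing notes, which list both GRCh38 and hg19. The counting program, annotation, strand setting and treatment of multiply mapped reads are not given in the sources used here, so overlapping and duplicated genes are uncertain. How the deposited log2 values were made is also not stated. From the values they behave as log2 of a per-length level plus 1: for 8345 genes with at least 200 counts in both libraries, the level per count differed between libraries by a median factor of 0.993, and 92.5% of genes lay within 2% of that median. For members with at least 100 parental counts the length they imply was 0.817 to 1.43 times the GENCODE 29 transcript length.

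Counts were scaled with edgeR 4.0.16 (TMM) in R 4.3.3, giving effective sizes of 16974207 (resistant) and 16834058 (parental). Ratio intervals are exact conditional binomial and level intervals exact Poisson, both at 95% (scipy 1.17.1). Without molecular identifiers, reads are not independent molecules, so intervals cover counting error only. Lengths are of the longest GENCODE transcript matched to a RefSeq mRNA. The 10 members, the pathway lists and the rules were chosen with earlier results of these data known. Named are all members, every pathway list gene past 2-fold, for most lists the gene with the highest mean CPM, and the 3 genes most like NOTCH3. That mean CPM is not corrected for length. Others were named for their role after their values were seen, and some list genes are counted but not reported by name. Alternatives were DESeq2 1.42.0 size factors, total counts, no filter or a 5 CPM filter, an added count of 2, stricter size rules, other lengths and the deposited log2 values.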

Additional observations from a re-analysis of the deposited data

How the results depend on the processing

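The count of 6 members lower and 0 higher was the same with DESeq2 size factors, total counts, no filter, a 5 CPM filter, an added count of 2, the whole interval beyond 2-fold and the deposited log2 values, and the same 6 genes were called each time. With a 4-fold rule 3 members (NOTCH3, LFNG and HEY1) were lower, where 2.93% of all tested genes were. The alternatives that recompute the ratio are 4, namely both scalings, the added count and the deposited log2 values. Of 40 member ratios under them, 36 stayed within the counting interval and 0 called genes turned sign. The 4 others were smaller in size with the deposited log2 values, at -3.30 for NOTCH3, -1.52 for JAG1, -1.68 for LFNG and -3.03 for HEY1. Adding 1 before the log shrinks differences of low values. Other pathway genes called lower numbered 11, or 5 with the whole interval beyond 2-fold, 3 with the 4-fold rule and 4 with the deposited log2 values. Those called higher numbered 6, or 2 with the 5 CPM filter and 3 with the deposited log2 values; fewer genes were tested under the filter. Per length, NOTCH3 over NOTCH2 was 0.124 in the resistant and 1.83 in the parental library, 0.101 and 1.48 by coding length, and 0.0945 and 1.39 with no length correction. From the deposited log2 values, an alternative chosen after seeing the data as was no length correction, it was 1.99 in the parental library. JAG1 over JAG2 stayed within its interval. No paired analysis was possible because each group has 1 library. Depth limits NOTCH4, DLL1, HES5 and HEY2, at 8 counts or fewer.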

Other observations

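Genes of airway fates that NOTCH is known to influence were looked at beside the pathway. Of 8 secretory genes, 4 were tested, with 3 called lower and 1 higher, beside 8.29% and 12.1% of all tested genes. SPDEF, a goblet cell transcription factor, had 0 counts in the resistant and 54 in the parental library. The mucin gene MUC5AC had 5 counts in resistant and 101 in parental cells. Both were tested only through the parental library, which fixed their direction, and MUC5AC missed the rule by the deposited log2 values (-0.94). AGR2, a disulfide isomerase of mucus-producing cells, was at 213 CPM in resistant and 599 CPM in parental cells. The mucin gene MUC5B went the other way, at 330 CPM in resistant and 36.8 CPM in parental cells. SCGB1A1, SCGB3A1 and TFF3 had 0 counts in both libraries.

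Of 8 ciliated-cell genes, 3 were tested and all 3 were called lower in resistant cells, where 8.29% of all tested genes were. The cilia genes DNAH5 and RSPH1 had 126 and 5 counts in the resistant library, against 398 and 33 in the parental one. RSPH1 was tested only through the parental library, which fixed its direction. MCIDAS, a regulator of multiciliated cells, had 48 counts in resistant and 106 in parental cells. By the deposited log2 values DNAH5 (-0.76) and MCIDAS (-0.78) missed the rule. FOXJ1, the ciliated-cell master regulator, had 0 counts in the resistant and 5 in the parental library. Of 6 neuroendocrine genes only DLL3 was tested, and NEUROD1 had 0 counts in both libraries, at a depth where a count of 0 allows up to 3 counts.

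Among 17 marker genes of endothelium, fibroblasts and blood cells 4 were tested, and CDH5, given above, was the only one called higher, where 12.1% of all tested genes were. CDH5 was tested only through the resistant library, which fixed its direction. Among 6 fibroblast markers only COL1A1 was tested, at 14.3 CPM in resistant and 20.7 CPM in parental cells. Of 5 haematopoietic markers CD68 and PTPRC were tested, with 537 and 7 counts in the resistant and 1447 and 21 in the parental library, and CD3E had 0 in both. CD68, a lysosomal protein gene used as a macrophage marker, was thus at 31.6 CPM in resistant and 86.0 CPM in parental cells. Both CD68 (-1.44) and PTPRC (-1.53) were called lower, where 8.29% of all tested genes were. By the deposited log2 values PTPRC missed the rule (-0.21). PTPRC was tested only through the parental library, which fixed its direction. The part of these marker genes in the NOTCH results was not tested.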
